A study of Homo sapiens with 6 samples.

Results

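The NRF2 pathway is the main transcriptional response of human cells to oxidants and electrophiles. The transcription factor NRF2, encoded by *NFE2L2*, is held in the cytoplasm by KEAP1, an adaptor that hands it to a CUL3 ubiquitin ligase for degradation. When reactive cysteines of KEAP1 are modified, NRF2 escapes, enters the nucleus, pairs with a small MAF protein and binds antioxidant response elements in the promoters and enhancers of detoxifying and redox genes. Because this control acts on NRF2 protein, its activity cannot be read from the mRNA of *NFE2L2* alone.

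The 10 genes examined were *NFE2L2* and *KEAP1*, the redox enzyme genes *NQO1*, *TXNRD1*, *SRXN1* and *PRDX1*, the heme and iron genes *HMOX1* and *FTH1*, the autophagy receptor gene *SQSTM1*, and *OSGIN1*, an oxidative stress response gene. They were chosen by symbol from the 58735 genes of an RNA sequencing table, in which each symbol matched 1 row. The comparison set 3 libraries of *RRM2*-OE-TPC-1 against 3 libraries of wild strain TPC-1, a human papillary thyroid carcinoma cell line. *RRM2* encodes the M2 subunit of ribonucleotide reductase, an enzyme that makes deoxyribonucleotides with electrons from thioredoxin or glutaredoxin. The *RRM2*-OE cells were infected with a lentivirus that carries *RRM2* under a CMV promoter and selected with puromycin, whereas the genotype label of the TPC-1 libraries reads WT. No library of an empty vector was analysed here, so that infection and selection cannot be told apart from *RRM2*. The genotype labels of *RRM2*-OE replicates 2 and 3 read RRM3 and RRM4, whereas their titles name *RRM2*. The values are FPKM, fragments scaled to gene length and to a factor for sequencing depth, which allow levels of a gene to be compared between libraries. Comparisons between genes rest on the gene length deposited with the values, which may not be that of the expressed transcript.

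*RRM2*, the check of the labels, stood at 9.17, 9.05 and 8.52 FPKM in TPC-1 and at 50.4, 47.5 and 47.2 FPKM in *RRM2*-OE, with all 3 *RRM2*-OE libraries above all 3 of TPC-1. The 6 libraries held 14317091 to 17084067 reads on genes, of which mitochondrial genes took 4.79% to 5.69% in TPC-1 and 4.29% to 5.89% in *RRM2*-OE. Of 12 thyroid and epithelial markers 5 were tested, with 2 higher and 2 lower in *RRM2*-OE, and their summed level was 116.6 to 121 FPKM in TPC-1 and 150.2 to 154 FPKM in *RRM2*-OE. The keratin genes *KRT18* (39.4 to 43.0 against 83.7 to 85.9 FPKM) and *KRT8* (2.32 to 2.75 against 3.38 to 3.60 FPKM) were the higher ones. *FOXE1*, a thyroid transcription factor gene, stood at 4.20 to 4.41 FPKM in TPC-1 and at 3.10 to 3.26 in *RRM2*-OE, and *PAX8*, another, at 67.3 to 70.8 FPKM in TPC-1 and at 56.3 to 59.8 in *RRM2*-OE, while *NKX2-1* was at 0 in every library and *TG*, the thyroglobulin gene, did not exceed 0.113 FPKM. The summed level of 6 leukocyte markers was 0.349 to 0.410 FPKM in TPC-1 and 0.135 to 0.215 in *RRM2*-OE, with 5 of them under 0.1 FPKM in every library. The summed level of 8 fibroblast and endothelial markers was 3.83 to 4.04 FPKM and 2.89 to 3.01 FPKM, respectively, with 2 at 0 in every library, and the part of these markers in the results below was not tested.

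All 10 genes were expressed in both groups, and their directions were mixed. Of the 10, 5 were higher in *RRM2*-OE (*HMOX1*, *OSGIN1*, *SQSTM1*, *KEAP1* and *PRDX1*), 4 were lower (*NFE2L2*, *NQO1*, *FTH1* and *TXNRD1*) and *SRXN1* did not pass the test. A gene was called at a Benjamini-Hochberg adjusted p of 0.05 or less with limma on log2(FPKM + 0.1), the scale of every log2 fold change given here, fitted on 13621 genes. By this rule 67.6% of all genes tested were called, 34.9% higher and 32.7% lower, and among the 4448 genes with a mean of at least 10 FPKM the called share was 80.6%. Read against that background, 9 called genes out of 10 is not a result about these genes as a set. The groups did not overlap for 9 of the 10 genes, nor for 72.2% of all genes tested and 83.5% of those with a mean of at least 10 FPKM. The median log2 fold change was 0.32 over the 10 genes and 0.01 over all genes tested. *HMOX1* was the single member past a 2-fold change, which 11.5% of all genes tested passed together with the adjusted p, 4.48% higher and 6.97% lower. All 10 passed the filter on low values, and 8 of them, other than *OSGIN1* and *SRXN1*, rested on at least 547 reads in each library.

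**Figure D1:**
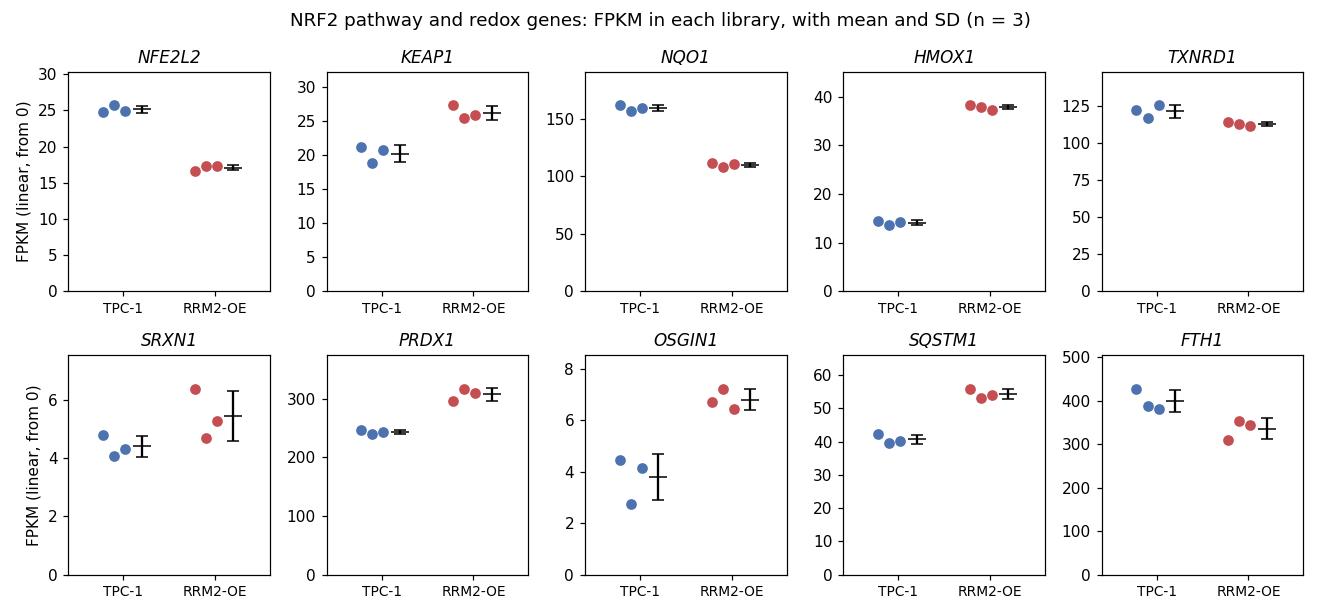
FPKM of each of the 10 genes (vertical axes, each starting at 0) in the 3 TPC-1 and 3 *RRM2*-OE libraries, with a point for each library and, beside the points, a horizontal line for the mean with its SD. The points of the groups are apart in every panel except that of *SRXN1*, and the gap is widest in proportion for *HMOX1*, from 13.6 to 14.4 FPKM against 37.3 to 38.2 FPKM.

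The sensor and the transcription factor moved in opposite directions at the mRNA level. *NFE2L2* (ENSG00000116044, chr2:177227595-177392697, minus strand, GRCh38) measured 24.8, 25.7 and 24.9 FPKM in TPC-1 and 16.7, 17.3 and 17.2 FPKM in *RRM2*-OE. Every *RRM2*-OE library lay below every TPC-1 library, and the mean fell from 25.1 ± 0.481 to 17.1 ± 0.374 FPKM (SD, n = 3). The log2 fold change was -0.56 (SE 0.0355, 95% confidence interval -0.64 to -0.47, limma adjusted p = 3.95e-06). In bulk RNA of this kind, fewer cells expressing a gene and less of its RNA per cell cannot be told apart.

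*KEAP1* (ENSG00000079999, chr19:10486120-10503741, minus strand) measured 21.1, 18.8 and 20.7 FPKM in TPC-1 and 27.3, 25.4 and 25.8 FPKM in *RRM2*-OE. Again the groups did not overlap, with *RRM2*-OE the higher, and the mean rose from 20.2 ± 1.26 to 26.2 ± 0.999 FPKM (SD, n = 3). The log2 fold change was 0.37 (SE 0.0532, 95% confidence interval 0.25 to 0.49, limma adjusted p = 3.77e-04). The order of both genes in FPKM was thus exchanged between the groups, which rests on the deposited gene lengths. FPKM of *NFE2L2* divided by that of *KEAP1* was 1.17, 1.37 and 1.20 in the TPC-1 libraries and 0.610, 0.683 and 0.669 in the *RRM2*-OE libraries. This ratio, chosen after the values had been seen, lay above 1 in every TPC-1 library and below 1 in every *RRM2*-OE library. Its two-sided exact permutation p was 0.1, the smallest that 3 libraries against 3 can give. Because both genes already separated the groups, in opposite directions, the ratio had to separate them too, and this p adds no support. The place of the ratio against 1 depends on those lengths, whereas its change in proportion between the groups does not.

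Antioxidant response elements hold the core TGACNNNGC, where N is any base, and the core was searched on both strands of RefSeq promoter windows of GRCh38.p14, from 250 bases before to 50 bases after each transcription start. The table held 12 windows for 7 of the 10 genes and none for *HMOX1*, *PRDX1* or *FTH1*. The core was present in 13.3% of all 35116 windows and in 3 of the 12, which belong to *KEAP1* and *TXNRD1*. A second window of *KEAP1* (chr19:10502722-10503021, minus strand) is shown because both of its matches lie close together before the start. Capitals mark the matches, the first read on the gene's strand and the other on the opposite strand.
KEAP1 second window: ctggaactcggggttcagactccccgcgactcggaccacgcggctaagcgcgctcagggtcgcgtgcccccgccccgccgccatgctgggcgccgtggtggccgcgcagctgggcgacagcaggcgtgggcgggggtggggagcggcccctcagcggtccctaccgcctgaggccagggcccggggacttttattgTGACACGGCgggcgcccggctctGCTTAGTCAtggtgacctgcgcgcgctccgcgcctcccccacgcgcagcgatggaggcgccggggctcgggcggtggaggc
The first match, TGACACGGC, begins 54 bases before the start, and TGACTAAGC on the opposite strand begins 31 bases before it. A match in letters is not evidence of binding, and no binding was measured.

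**Figure D2:**
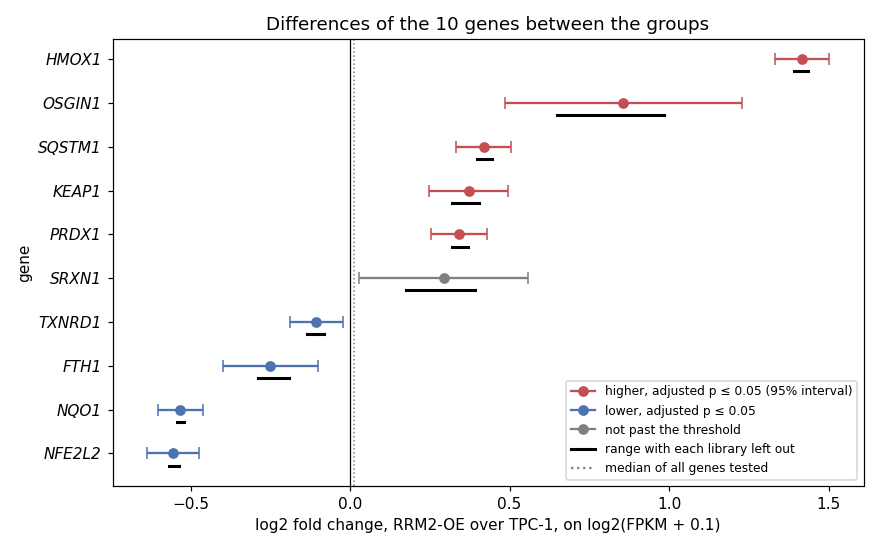
log2 fold change of FPKM (horizontal axis, *RRM2*-OE over TPC-1) for the 10 genes, with the 95% confidence interval from limma as a thin line, in red for higher, blue for lower and grey for not past the threshold. The black line under each point spans the values with each library left out, and the dotted line is the median of all genes tested. The values run from -0.56 for *NFE2L2* to 1.42 for *HMOX1*.

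*HMOX1* and *NQO1*, which are both widely used as readouts of NRF2 activity, changed in opposite directions. *HMOX1* (ENSG00000100292, chr22:35380361-35394214, plus strand) encodes heme oxygenase 1, which opens heme to biliverdin, carbon monoxide and iron. Its FPKM was 14.4, 13.6 and 14.3 in TPC-1 and 38.2, 37.9 and 37.3 in *RRM2*-OE. All *RRM2*-OE libraries were above all TPC-1 libraries, and the mean rose 2.68-fold, from 14.1 ± 0.454 to 37.8 ± 0.432 FPKM (SD, n = 3). The log2 fold change was 1.42 (SE 0.0366, 95% confidence interval 1.33 to 1.50, limma adjusted p = 5.43e-08), rank 241 of the 13621 genes tested when ordered from the most raised. *NQO1* (ENSG00000181019, chr16:69706996-69726951, minus strand) encodes a quinone reductase that spends NADPH or NADH to make hydroquinones. Its level was 162, 157 and 159 FPKM in TPC-1 and 112, 108 and 110.3 FPKM in *RRM2*-OE, with no overlap. The mean fell from 159 ± 2.48 to 110.1 ± 1.61 FPKM (SD, n = 3), a log2 fold change of -0.53 (SE 0.0309, 95% confidence interval -0.60 to -0.46, limma adjusted p = 2.43e-06). The 1 *NQO1* window in the RefSeq table held no match to the core, which says only that these letters are not in that window.

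The genes whose profiles over the 6 libraries were nearest to that of *HMOX1* were *PAPSS2*, *EFHD2* and *PSMD2*, out of 4447 other genes with a mean of at least 10 FPKM. Likeness was measured as the Euclidean distance between log2 profiles centred on their own means, which was 0.0937, 0.0938 and 0.0947, and each of these genes was higher in *RRM2*-OE, with log2 fold changes of 1.44, 1.47 and 1.37. The 6 points of each profile fall into 2 groups, so that likeness here mainly means a rise of like size.

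The thioredoxin arm was represented by *TXNRD1*, *PRDX1* and *SRXN1*. *TXNRD1* (ENSG00000198431, chr12:104215779-104350305, plus strand) encodes the cytosolic selenoenzyme that reduces thioredoxin with NADPH. It stood at 122, 117 and 126 FPKM in TPC-1 and at 114, 113 and 112 FPKM in *RRM2*-OE, so that the groups were apart by a small margin. Its mean of 122 ± 4.45 FPKM in TPC-1 was followed by 113 ± 1.28 FPKM in *RRM2*-OE (SD, n = 3), with a log2 fold change of -0.11 (SE 0.0360, 95% confidence interval -0.19 to -0.02, limma adjusted p = 0.0298). This call was lost when TPC-1 replicate 1 (adjusted p = 0.0701), TPC-1 replicate 3 (0.116), *RRM2*-OE replicate 2 (0.0793) or *RRM2*-OE replicate 3 (0.0928) was left out, as well as under 3 other settings of the fit. *TXN*, the thioredoxin that this enzyme reduces, stood at 135, 141 and 144 FPKM in TPC-1 and at 268, 266 and 266 FPKM in *RRM2*-OE, a log2 fold change of 0.93. The ratio of *TXNRD1* to *TXN* was 0.908, 0.831 and 0.870 in TPC-1 and 0.427, 0.423 and 0.420 in *RRM2*-OE (two-sided exact permutation p = 0.1, the smallest possible, for a ratio chosen after the values had been seen). Here too both genes already separated the groups in opposite directions, so that this p was fixed and adds no support.

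The windows of *TXNRD1* are shown because both hold the core, in capitals, although the gene was the least changed of the called ones. The first window is at chr12:104215529-104215828 and the second at chr12:104286782-104287081, both on the plus strand.
TXNRD1 first window: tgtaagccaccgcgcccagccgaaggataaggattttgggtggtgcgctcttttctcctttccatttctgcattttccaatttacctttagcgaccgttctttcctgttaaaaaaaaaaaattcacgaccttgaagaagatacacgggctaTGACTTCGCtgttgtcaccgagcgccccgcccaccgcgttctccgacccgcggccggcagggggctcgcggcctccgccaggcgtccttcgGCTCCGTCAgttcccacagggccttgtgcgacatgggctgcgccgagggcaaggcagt
TXNRD1 second window: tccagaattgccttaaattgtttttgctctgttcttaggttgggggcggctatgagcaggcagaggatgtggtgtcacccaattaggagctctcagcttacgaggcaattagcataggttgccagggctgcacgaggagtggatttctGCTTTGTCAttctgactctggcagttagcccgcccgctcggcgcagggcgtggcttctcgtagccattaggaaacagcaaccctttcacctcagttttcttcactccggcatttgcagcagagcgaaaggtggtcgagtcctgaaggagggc
In the first window TGACTTCGC begins 99 bases before the start and TGACGGAGC, on the opposite strand, 8 bases before it. In the second, TGACAAAGC on the opposite strand begins 102 bases before the start.

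*PRDX1* (ENSG00000117450, chr1:45511036-45523047, minus strand) encodes peroxiredoxin 1, an abundant peroxidase that thioredoxin reduces. It measured 246, 239 and 243 FPKM in TPC-1 and 296, 318 and 309.7 FPKM in *RRM2*-OE, without overlap. The mean rose from 243 ± 3.43 to 308 ± 10.8 FPKM (SD, n = 3), with a log2 fold change of 0.34 (SE 0.0383, 95% confidence interval 0.25 to 0.43, limma adjusted p = 9.25e-05).

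*SRXN1* (ENSG00000271303, chr20:646615-653370, minus strand) encodes sulfiredoxin, which repairs peroxiredoxins after overoxidation. It was at 4.80, 4.08 and 4.33 FPKM in TPC-1 and at 6.39, 4.70 and 5.26 FPKM in *RRM2*-OE. The groups overlapped, since *RRM2*-OE replicate 2 lay below TPC-1 replicate 1. The means were 4.40 ± 0.366 and 5.45 ± 0.861 FPKM (SD, n = 3), and the log2 fold change of 0.29 (SE 0.114, 95% confidence interval 0.03 to 0.56) had a limma adjusted p of 0.0501, just outside the threshold. It was called without TPC-1 replicate 1 (adjusted p = 0.0425) and without *RRM2*-OE replicate 2 (0.0151), whereas without *RRM2*-OE replicate 1 the log2 fold change was 0.17 (0.137) and without TPC-1 replicate 2 it was 0.24 (0.137). Its exons share 2292 of 2698 bases, or 85.0%, with AL121758.1, an annotated gene of the same strand listed at a mean of 0.0492 FPKM, so that the level of *SRXN1* is uncertain.

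*OSGIN1* and *SQSTM1* were both higher in *RRM2*-OE. *OSGIN1* (ENSG00000140961, chr16:83948282-83966332, plus strand), named for inhibition of growth under oxidative stress, measured 4.43, 2.75 and 4.15 FPKM in TPC-1 and 6.72, 7.22 and 6.44 FPKM in *RRM2*-OE. The groups did not overlap, and TPC-1 replicate 2 was the lowest library. The mean rose from 3.78 ± 0.902 to 6.79 ± 0.396 FPKM (SD, n = 3), a log2 fold change of 0.86 (SE 0.161, 95% confidence interval 0.48 to 1.23, limma adjusted p = 0.00174). Without TPC-1 replicate 2 it was 0.65, and these values rested on 160 to 428 reads a library. *SQSTM1* (ENSG00000161011, chr5:179806398-179838078, plus strand) encodes p62, an autophagy receptor that also binds KEAP1 and is itself an NRF2 target. It stood at 42.2, 39.6 and 40.2 FPKM in TPC-1 and at 55.9, 53.2 and 53.9 FPKM in *RRM2*-OE, again without overlap. Its mean rose from 40.6 ± 1.36 to 54.3 ± 1.41 FPKM (SD, n = 3), a log2 fold change of 0.42 (SE 0.0373, 95% confidence interval 0.33 to 0.51, limma adjusted p = 2.44e-05).

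The *OSGIN1* window (chr16:83952990-83953289, plus strand) held no antioxidant response core. It is shown because it was the single member window with the AP-1 letters TGANTCA, which 7.71% of all windows hold and which can overlap an antioxidant response element. The capitals mark that match, 97 bases before the start, which reads the same way at that place on both strands apart from its centre.
OSGIN1 window: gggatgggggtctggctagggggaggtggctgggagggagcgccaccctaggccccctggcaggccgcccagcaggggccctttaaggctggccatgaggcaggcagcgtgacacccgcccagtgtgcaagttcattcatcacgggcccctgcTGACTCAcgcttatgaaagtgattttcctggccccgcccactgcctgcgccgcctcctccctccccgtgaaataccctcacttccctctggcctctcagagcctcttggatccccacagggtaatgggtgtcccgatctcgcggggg

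*FTH1* (ENSG00000167996, chr11:61959718-61967660, minus strand) encodes the ferritin heavy chain, which oxidises iron for storage and whose translation is held back by an iron-responsive element in the 5′ untranslated region of its mRNA. The element is shown because it separates ferritin protein from the mRNA level measured here. It was read from bases 59 to 87 of an *FTH1* transcript of GENCODE 29, with the loop letters in capitals.
FTH1 iron-responsive element: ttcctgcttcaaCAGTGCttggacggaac
*FTH1* measured 428, 388 and 382 FPKM in TPC-1 and 309, 354 and 344 FPKM in *RRM2*-OE. All *RRM2*-OE libraries were lower than all of TPC-1, and the mean fell from 399 ± 25.1 to 336 ± 23.7 FPKM (SD, n = 3), with a log2 fold change of -0.25 (SE 0.0650, 95% confidence interval -0.40 to -0.10, limma adjusted p = 0.00933). Reads of its 25 annotated pseudogenes came to at most 0.915% of the *FTH1* reads in any library. *FTL*, the ferritin light chain gene, named after its values had been seen, was at 3047, 2882 and 2885 FPKM in TPC-1 and at 2190, 2268 and 2228 FPKM in *RRM2*-OE (log2 fold change -0.40). The ratio of *FTH1* to *FTL* was 0.140, 0.135 and 0.132 in TPC-1 and 0.141, 0.156 and 0.154 in *RRM2*-OE (two-sided exact permutation p = 0.1, a ratio chosen after the values had been seen).

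By level, *FTH1*, *PRDX1*, *SQSTM1* and *KEAP1* held the same rank in both groups, and the other genes did not. The order between genes rests on the deposited gene lengths, and the place of *SRXN1* also on a level that is uncertain because of its shared exonic bases. In TPC-1 the order by mean FPKM, from high to low, was *FTH1*, *PRDX1*, *NQO1*, *TXNRD1*, *SQSTM1*, *NFE2L2*, *KEAP1*, *HMOX1*, *SRXN1* and *OSGIN1*. Of the neighbours in that order, the ranges of *SRXN1* and *OSGIN1* overlapped and those of the other pairs did not. Within each TPC-1 library, however, *SRXN1* was above *OSGIN1*. In *RRM2*-OE, *TXNRD1* stood above *NQO1* and *OSGIN1* above *SRXN1*, both by narrow gaps. The lowest *TXNRD1* library was at 111.7 and the highest of *NQO1* at 111.6 FPKM, and those of *OSGIN1* and *SRXN1* were at 6.44 and 6.39 FPKM. In the same group *HMOX1* moved from rank 8 to rank 6 while *NFE2L2* moved from rank 6 to rank 8. There the ranges of *FTH1* and *PRDX1* overlapped, at 309 to 354 and 296 to 318 FPKM, although *FTH1* was the higher within each library.

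**Figure D3:**
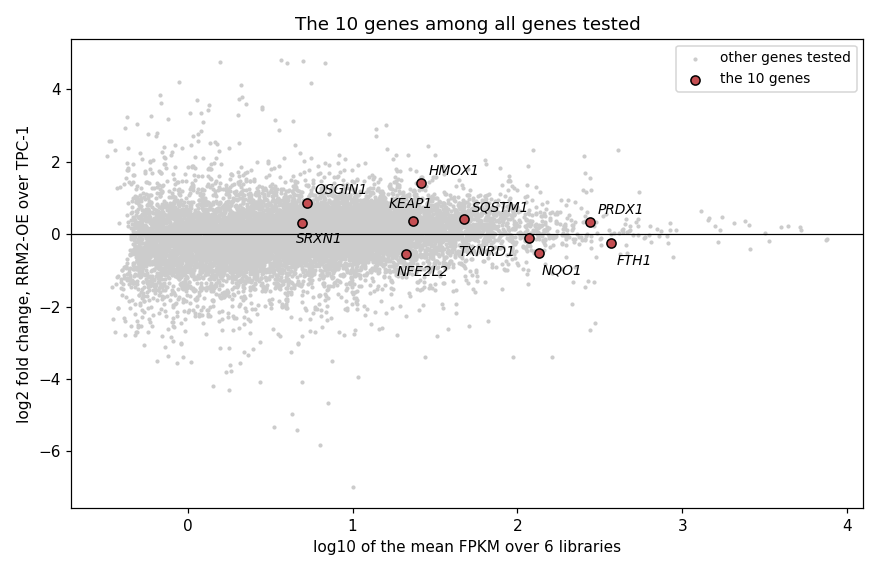
log2 fold change (vertical axis, *RRM2*-OE over TPC-1) against log10 of the mean FPKM over the 6 libraries (horizontal axis) for the 13621 genes tested, in grey, and the 10 genes, in red. *HMOX1* lies at 1.42, and the other 9 lie between -0.56 and 0.86.

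The proteins that control or accompany NRF2 were described with a list of 24 genes, of which 23 were tested, 6 were higher and 7 lower, with a median log2 fold change of 0.02. The shares called higher and lower, 26.1% and 30.4%, were below those of all genes. From this and the other lists, genes are named by the size of their change among the called genes with a mean of at least 1 FPKM and no overlap between the groups. *DPP3* (0.72) and *PGAM5* (0.70), both of which encode KEAP1-binding proteins, and the NRF2-related factor gene *NFE2L3* (0.67) had the largest log2 fold changes among those that rose. *CREBBP* (-0.66) and *EP300* (-0.58), which encode acetyltransferase coactivators of NRF2, and *CHD6* (-0.40), a chromatin remodeler gene, led those that fell. *BACH1*, the repressor that competes with NRF2 at *HMOX1*, measured 4.42 ± 0.245 FPKM in TPC-1 and 4.14 ± 0.0914 FPKM in *RRM2*-OE (SD, n = 3; log2 fold change -0.09, limma adjusted p = 0.249), and was named after its values had been seen.

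A list of 44 other NRF2 target genes, of which 35 were tested, held 10 genes that were higher (28.6%) and 20 that were lower, with a median log2 fold change of -0.40. The share lower was 57.1%, beside 32.7% of all genes tested. Called in either direction were 85.7%, beside 67.6% of all genes tested and 80.6% of those with a mean of at least 10 FPKM. Shares by direction were not computed for genes of like level, here or for the lists that follow. The counts of this list include *AKR1B10* among the higher genes and *CYP4F11*, named after its values had been seen, among the lower. Each reached 0.5 FPKM only in the group where it is high, so that the filter fixed its direction. The largest falls were those of *ABCC3*, a multidrug and conjugate exporter gene, from 32.7 ± 1.79 to 4.62 ± 0.143 FPKM (log2 fold change -2.79), of *EPHX1*, an epoxide hydrolase gene (-1.28), and of *SLC7A11*, the cystine importer gene that feeds glutathione synthesis, from 18.3 ± 0.824 to 7.87 ± 0.104 FPKM (-1.21; SD, n = 3 for each). The carbonyl reductase genes *CBR3* (1.31) and *CBR1* (0.68) and *TXN* (0.93) led those that rose. *AKR1B10* (1.74), an aldo-keto reductase gene named after its values had been seen, had a mean under 1 FPKM over the 6 libraries. It passed the filter through the *RRM2*-OE libraries alone, so that its rise is not read as a result. *GCLM*, the modifier subunit gene of glutamate-cysteine ligase, named after its values had been seen, rose from 17.4 ± 0.761 to 25.5 ± 0.665 FPKM (0.55; SD, n = 3). The targets therefore fell into both directions, as the 8 genes other than *NFE2L2* and *KEAP1* did, of which 4 were higher and 3 lower.

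**Figure D4:**
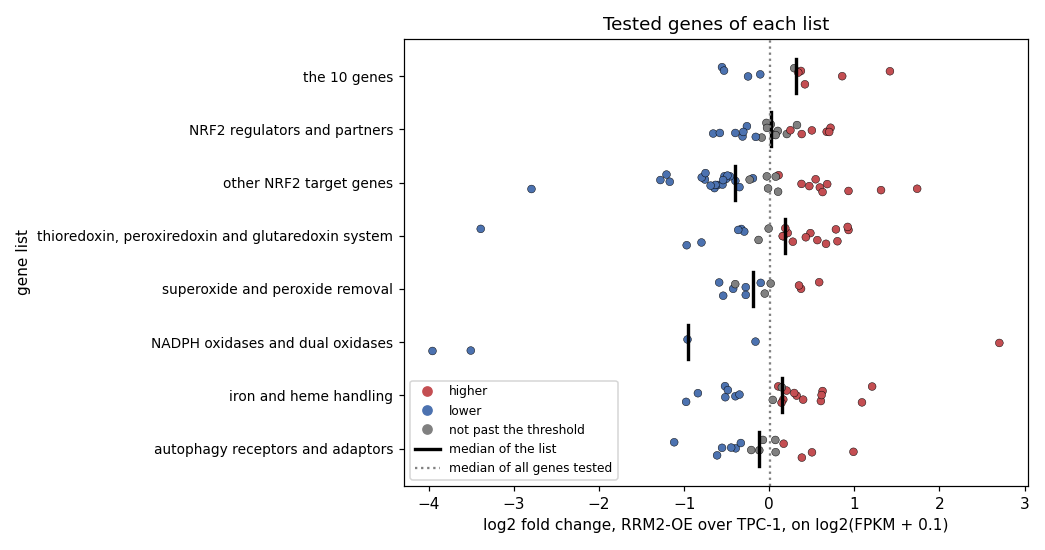
log2 fold change (horizontal axis, *RRM2*-OE over TPC-1) of every tested gene of the 10 and of 7 pathway lists (rows), with a point for each gene (red for higher, blue for lower, grey for not past the threshold), a black line at the median of each row and a dotted line at the median of all genes tested. The medians lie between -0.96 for the NADPH oxidases and 0.32 for the 10 genes, and every row has genes on both sides of 0.

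In the thioredoxin, peroxiredoxin and glutaredoxin system, to which *TXNRD1*, *PRDX1* and *SRXN1* belong by function, 13 of 21 other genes were higher and 6 lower (median log2 fold change 0.19). These are 61.9% and 28.6%, beside 34.9% and 32.7% of all genes tested, the same background as for the lists that follow other than the oxidases. *TXN* (0.93), which is also in the list of NRF2 target genes, the methionine sulfoxide reductase gene *MSRB1* (0.92) and the glutaredoxin gene *GLRX3* (0.80) rose most. *TXNIP* (-3.39), whose product binds and inhibits thioredoxin, *PRDX5* (-0.97) and *MSRB2* (-0.80) fell most. Of 14 genes for removal of superoxide and peroxide, 12 were tested, 3 were higher (25%) and 6 lower (50%, median -0.19). Superoxide dismutase gene *SOD1* (0.59), *GPX1* (0.37) and *PARK7* (0.35) rose, while *CAT*, the catalase gene (-0.59), the lipid peroxide reductase gene *GPX4* (-0.54) and *PON2* (-0.42) fell. Of 15 genes of NADPH and dual oxidases, which make reactive oxygen, 5 passed the filter, 1 higher (20%) and 4 lower (80%). With any 1 library left out 4 passed, so that some of the 5 passed only through the group where they are high. That fixes their direction, and these shares are not read against the background. *NOX5* fell from 20.4 ± 0.824 to 1.22 ± 0.0641 FPKM (SD, n = 3, log2 fold change -3.96), and *NOXA1*, which encodes an activator of another oxidase, by 3.51 on the log2 scale. *CYBA* (-0.16) and *DUOX1* (-0.96) were the other lower genes, both named after their values had been seen. The 1 higher gene of this list had a log2 fold change of 2.70.

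Of 24 genes of iron and heme handling, the setting of *HMOX1* and *FTH1*, 21 were tested, 12 were higher (57.1%) and 7 lower (33.3%, median log2 fold change 0.15). *HMOX2*, the constitutive heme oxygenase gene, rose from 8.46 ± 0.525 to 19.7 ± 0.814 FPKM (1.21), the transferrin receptor gene *TFRC* from 41.6 ± 1.85 to 88.6 ± 1.76 FPKM (1.09), and the biliverdin reductase gene *BLVRA* by 0.63 on the log2 scale (SD, n = 3). *HMOX1* and *HMOX2* thus rose together, and the ratio of *HMOX1* to *HMOX2* was 1.79, 1.64 and 1.58 in TPC-1 and 1.92, 1.86 and 1.99 in *RRM2*-OE (two-sided exact permutation p = 0.1, a ratio chosen after the values had been seen). *ALAD* (-0.98), a heme synthesis gene, *SLC25A37* (-0.84), the mitochondrial iron importer gene, and *PCBP2* (-0.52), an iron chaperone gene, fell. Of the 15 genes for autophagy receptors and adaptors other than *SQSTM1*, 4 were higher (26.7%) and 6 lower (40%, median -0.12). The mitophagy receptor genes *BNIP3* (0.99) and *FUNDC1* (0.50) and the kinase gene *TBK1* (0.38) rose, whereas *GABARAPL1* (-1.12), *CALCOCO2* (-0.61) and *ULK1* (-0.55) fell.

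Some of these genes share exonic bases with others, and whether strand was used in counting is not given in the sources used here. *FTH1* shares 1267 bases, or 62.4% of its length, with *BEST1* on the opposite strand, which was listed at a mean of 0.0731 FPKM. *NQO1* shares 575 bases with AC092115.2 on the opposite strand (listed at 0), and *OSGIN1* shares 481 bases of its own strand with AC009119.2 (0.0746 FPKM). *SQSTM1* shares 1582 bases with *MRNIP* on the opposite strand (mean 3.85 FPKM) and 105 bases with *MGAT4B* (34.9 FPKM), *PRDX1* shares 379 bases with *MMACHC* (1.60 FPKM), and *NFE2L2* shares 54 bases with *AGPS* (14.2 FPKM), 190 with AC079305.1 (0.180 FPKM) and 1054 bases of its own strand with AC019080.1 (0.415 FPKM). *TXNRD1*, *KEAP1* and *HMOX1* share none.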

How the data were processed

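Per the sample labels and the study's methods, reads of 3 TPC-1 and 3 *RRM2*-OE-TPC-1 libraries were trimmed with fastp, aligned with HISAT2 2.0.5 to GRCh38.p14 and counted per gene with featureCounts 1.5.0, the versions and the build being those of the submitters' processing notes, which also name DESeq2 1.20.0. The authors deposited FPKM values, that is, counts divided by gene length and a depth factor. The methods describe poly(A) selection, whereas in the labels ribosomal RNA was removed and linear RNA was digested with RNase R, and which was applied to these libraries could not be settled. The methods describe biological triplicates. Where replicates do not come from separate cultures, p-values measure only the spread between libraries. The chi-square per degree of freedom of reads between 2 replicates, near 1 for sampling noise alone, was 3.05 to 3.23 in TPC-1. In *RRM2*-OE it was 1.82 for replicates 2 and 3, but 5.30 and 6.00 for replicate 1 against these. Whether cultures were separate was not tested.

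FPKM multiplied by the gene length deposited beside it gave whole reads for 100% of values, within 0.01 of a read, so that depth could be read from the table. The depth factor was 1.03 to 1.05 times the reads on genes in TPC-1 and 0.997 to 1.01 times in *RRM2*-OE. It thus differed between the groups. All 58735 gene positions were those of GENCODE 29. Values were analysed as log2(FPKM + 0.1) with limma 3.58.1 in R 4.3.3 (lmFit, and eBayes with a trend of the variance on the mean), two-sided, with Benjamini-Hochberg adjustment. Genes needed at least 0.5 FPKM and 10 reads in at least 3 libraries. Because the unit was FPKM, no count model was used, apart from voom weights as an alternative. The pseudocount makes fold changes of low genes smaller than they are. The procedure was run on simulated counts in which few or no genes changed and values were scaled to library totals. In these data most genes were called, so that the simulation does not show how the procedure performs here. Python 3.11.15 was used for sequences and figures.

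The 10 genes and the pathway lists were chosen with earlier results of these data known, and the lists were written by hand. Some genes, such as *TXN* and *BLVRA*, are in more than 1 list, so that the counts of the lists are not independent. Values of some listed genes are not reported here. By the rule for named genes, these are the 10, *RRM2*, up to 3 genes in each direction from each list, and the 3 nearest profiles to that of the member with the largest change. The listed genes were those with the largest absolute log2 fold change among the called genes with a mean of at least 1 FPKM and no overlap between the groups. Cell type markers were named apart from this rule, and genes outside it (*FTL*, *BACH1*, *GCLM*, *AKR1B10*, *CYP4F11*, *CYBA* and *DUOX1*) after their values had been seen. Alternatives were pseudocounts of 1 and 0.01, no filter, the FPKM minimum alone, library totals, median-of-ratios factors, voom, no variance trend, the replicate number as a block, protein-coding genes, and each library left out in turn.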

Additional observations from a re-analysis of the deposited data

How the results depend on the processing

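Over 16 alternatives, 147 of 160 values of the 10 genes kept their direction and their side of the threshold, 7 lost the call, 6 gained it and 0 changed direction. For 8 of the 10 genes every alternative gave the same call, the exceptions being *TXNRD1* and *SRXN1*. The call of *TXNRD1* was lost without the filter (log2 fold change -0.11, adjusted p = 0.0695), without the variance trend (-0.11, 0.0859) and with a replicate block (-0.11, 0.0587), and over the libraries left out its values ran from -0.13 to -0.083. *SRXN1* was called with a pseudocount of 1 (0.25, adjusted p = 0.0497), with median-of-ratios factors (0.29, 0.0495), with a replicate block (0.29, 0.0117) and among protein-coding genes alone (0.29, 0.0236), and its values ran from 0.17 to 0.39 over the libraries left out. The adjusted p ran from 4.40e-05 to 0.116 for *TXNRD1* and from 0.0117 to 0.137 for *SRXN1* over all alternatives, and the cause was not tested. Of all genes tested, 610 were higher and 950 lower by at least 2-fold, which became 303 and 413 with a pseudocount of 1 and, for higher genes, 920 without the filter, where more genes were tested. In the list of NADPH oxidases, the count of higher genes ran from 0 to 1 over the libraries left out, with 0 without each *RRM2*-OE library, where fewer genes of the list passed the filter. The count of lower genes ran from 2 to 4, with 2 without TPC-1 replicate 1 or 3.

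The replicate numbers did not pair the libraries, since the deviations of libraries with the same number correlated at -0.011, -0.006 and -0.055. With the replicate number as a block, 4616 genes were higher and 4318 lower, beside 4758 and 4449 without it. Scaling to library totals moved the median log2 fold change of all genes from 0.01 to -0.05. *SRXN1* and *OSGIN1* had the fewest reads of the 10 genes, from 160 to 428 in a library for *OSGIN1* and from 185 to 249 for *SRXN1*. Levels of mRNA do not give the protein or activity of NRF2.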
